A study of Mus musculus with 6 samples.

Results

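The 9 genes described here encode subunits of activator protein 1 (AP-1): Fos, Fosb, Fosl1 and Fosl2 of the Fos subfamily, Jun, Junb and Jund of the Jun subfamily, and Batf and Batf3 of the Batf subfamily. They were chosen by gene symbol, and all 9 were found among the 23284 genes measured. The cells were of C1498, a line of mouse acute myeloid leukemia (AML), and were sorted as GFP+ CD49b+ cells from the bone marrow of 3 mice given cytarabine and 3 control mice on day 21 after leukemia transfer. Each mouse gave 1 library, and the libraries are named cytarabine 1 to 3 and control 1 to 3. All recipients were wild-type C57BL/6J mice, described as female and 8 to 10 weeks old where nothing else was stated, and all carried leukemia from 1 clone transduced with a retroviral GFP vector. The controls are labelled PBS in some fields and as not treated in others, and the schedule of cytarabine was not given for the sequenced mice in particular. Expression was given as FPKM, a count of fragments divided by exon length and by the mapped fragments of the library, so levels of different genes can be set side by side per length.

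AP-1 is a dimer of proteins that share a basic leucine zipper, through which they pair and touch DNA. Jun proteins can pair with each other or with Fos proteins, whereas Fos proteins need a partner, and BATF proteins pair with Jun proteins and act with IRF4 or IRF8 at composite sites in lymphocytes and myeloid cells. Fos, Fosb, Jun and Junb are immediate-early genes: their mRNAs appear briefly after growth factors, antigen receptor signals or stress and are then rapidly degraded. Fos transcription is driven by SRF with ternary complex factors downstream of ERK, Jun transcription largely by AP-1-type dimers downstream of JNK. Jund is the more steadily transcribed member of the Jun subfamily.

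The start regions of 3 members are shown because they hold letter matches to the control-site motifs searched for here. They are the bases just before the RefSeq start in GRCm38.p6, written 5′ to 3′ along the gene, and capitals mark the matches to the motifs named next. RefSeq start regions were at hand for 8 of the 9 members, all but Fosl1.
Jun, chr4:95052223-95052472, minus strand: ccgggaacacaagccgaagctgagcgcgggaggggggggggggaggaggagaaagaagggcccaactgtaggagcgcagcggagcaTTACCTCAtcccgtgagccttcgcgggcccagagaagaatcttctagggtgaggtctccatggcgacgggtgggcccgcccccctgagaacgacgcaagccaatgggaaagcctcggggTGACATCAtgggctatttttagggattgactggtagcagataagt
Fos, chr12:85473770-85473889, plus strand: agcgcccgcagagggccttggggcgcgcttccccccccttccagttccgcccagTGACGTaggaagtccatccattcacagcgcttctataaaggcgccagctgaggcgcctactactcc
Batf, chr12:85686600-85686719, plus strand: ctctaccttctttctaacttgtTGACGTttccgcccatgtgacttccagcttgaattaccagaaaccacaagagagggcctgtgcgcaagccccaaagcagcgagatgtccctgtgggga
Motifs were searched on both strands of the 250 bases before each start. The Jun region holds TTACCTCA from 164 to 157 and TGACATCA from 45 to 38 bases before the start, the pair of AP-1-type sites known from the Jun promoter. Of 32851 mouse start regions of the same length, 0.728% hold TTACCTCA and 2.93% hold TGACATCA. The Fos region holds TGACGT, the core of the cAMP response element, from 66 to 61 bases before the start, and the Batf region holds it from 98 to 93 bases before the start, against 6.47% of all regions. The classical AP-1 site, written TGANTCA, was found in 6.75% of all regions and in none of the 8 members, and the CArG box bound by SRF in 1.47% of all regions and in none of the 8. Sites farther from the start were not searched, so a motif not found here may still lie elsewhere near the gene. These are matches of letters in a short window and not measured binding.

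The libraries differed in ways that cross the groups. Low FPKM values spaced at whole reads gave inferred depths of 11500000 to 18900000 reads. Of 8 hematopoietic genes, all 8 were measured above 1 FPKM on average, among them Ptprc (CD45) at 283.5 to 385.5 FPKM and Itga2 (CD49b, used in the sort) at 7.79 to 13.3 FPKM. The 10 early myeloid genes summed to 22.7 to 47.1 FPKM in 5 libraries and to 256.2 FPKM in cytarabine 1, where the granule genes Elane, Mpo, Prtn3 and Ctsg were at 81.7, 71.1, 64.3 and 32.8 FPKM. Kit was at 0.243 to 1.59 FPKM throughout. Summed FPKM of 16 colon epithelial markers was 2453 to 5625 in cytarabine 2, cytarabine 3 and control 1, and 26.9 to 395.9 in the other 3 libraries. Their mean log2(FPKM + 1) in a library is called the colon score, and that of the heart markers the heart score. Summed FPKM of 11 heart markers was 2541 in control 1, 692.0 in cytarabine 3, 546.3 in control 2 and 7.59 to 53.0 in the others. The 9 neutrophil markers summed to 202.6 and 190.3 FPKM in cytarabine 2 and 3, to 1435 FPKM in cytarabine 1 and to 1440 to 2046 FPKM in controls. In these bulk samples fewer cells of a type and less RNA per cell cannot be told apart. What part these other transcripts have in the results below was not tested.

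Jund and Junb together held most of the summed FPKM of the 9 genes in these libraries. Mean FPKM over the 6 libraries ran from Jund (55.6) and Junb (50.6) through Batf (24.4), Fos (17.1), Batf3 (15.5), Fosb (6.40), Fosl2 (5.26) and Jun (3.57) to Fosl1 (0.248). Along this order the values of neighbors overlapped, except that Junb was above Batf and Jun above Fosl1 in all 6 libraries with no overlap of their ranges. By the median over libraries the order was the same save that Batf3 stood before Fos. The Jun subfamily held 54.5 to 67.6% of the summed FPKM of the 9 genes, the Batf subfamily 17.4 to 28.4% and the Fos subfamily 9.85 to 25.4%.

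**Figure D1:**
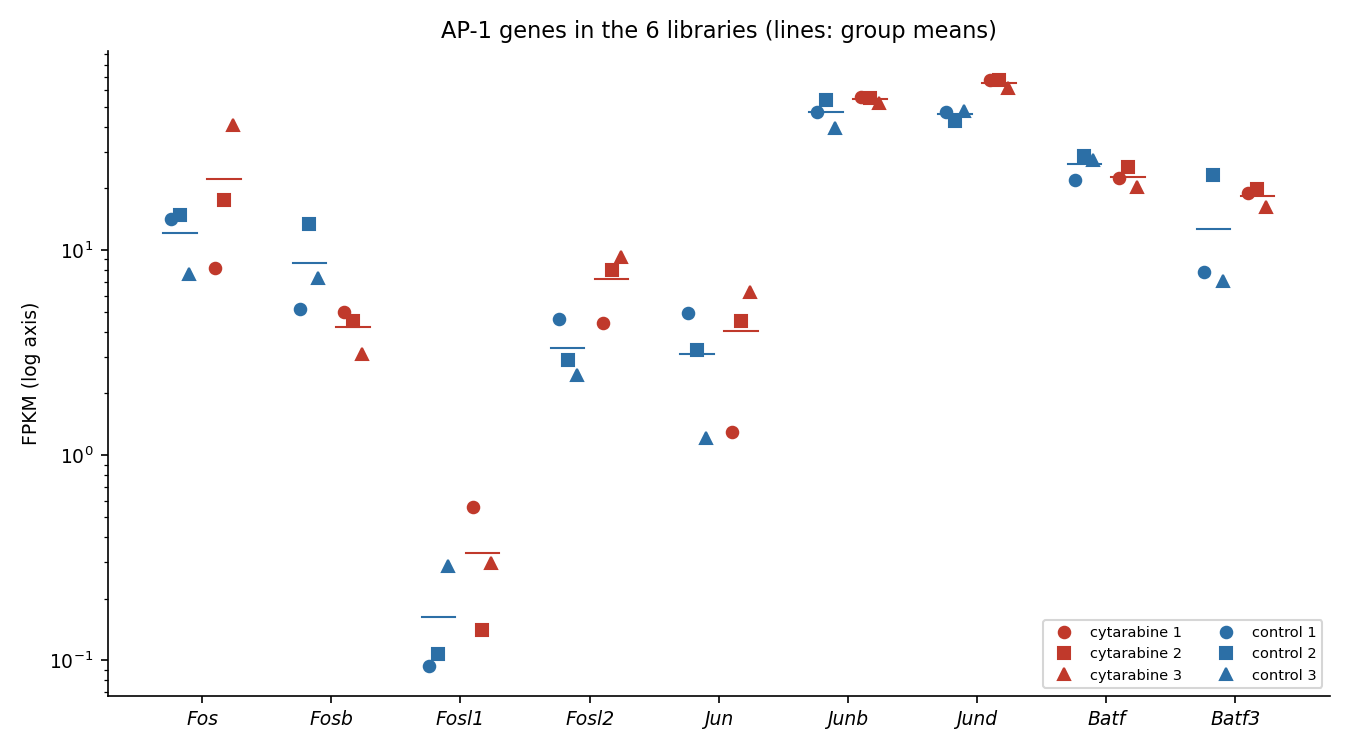
FPKM on a log axis of the 9 AP-1 genes, with a point for each library (red, cytarabine; blue, control) and a line at each group mean. Jund is the gene whose 3 cytarabine points all lie above the controls, Fosb the one whose 3 cytarabine points all lie below them, and Fosl1 stays under 1 FPKM in every library.

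The question of the comparison was how AML cells that remained after cytarabine differ from untreated cells. Of the 9 members, 8 had a mean of at least 1 FPKM and were tested with limma together with all 11703 such genes. No gene had an adjusted p under 0.05 (0% of the genes tested), while 2038 had an unadjusted p under 0.05, and the alternative fits gave 0 to 6 genes at the adjusted threshold. Of the 8 members, 2 had an unadjusted p under 0.05 and were higher with cytarabine, Jund and Fosl2, against 7.60% of all genes tested in that direction. None of the 8 was lower at that threshold, against 9.81% of all genes. Groups did not overlap for 1 member upward, Jund (10.9% of all genes), and for 1 downward, Fosb (12.9% of all genes). The median log2 fold change of the 8 members was 0.37, and that of all genes tested was -0.0015.

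**Figure D2:**
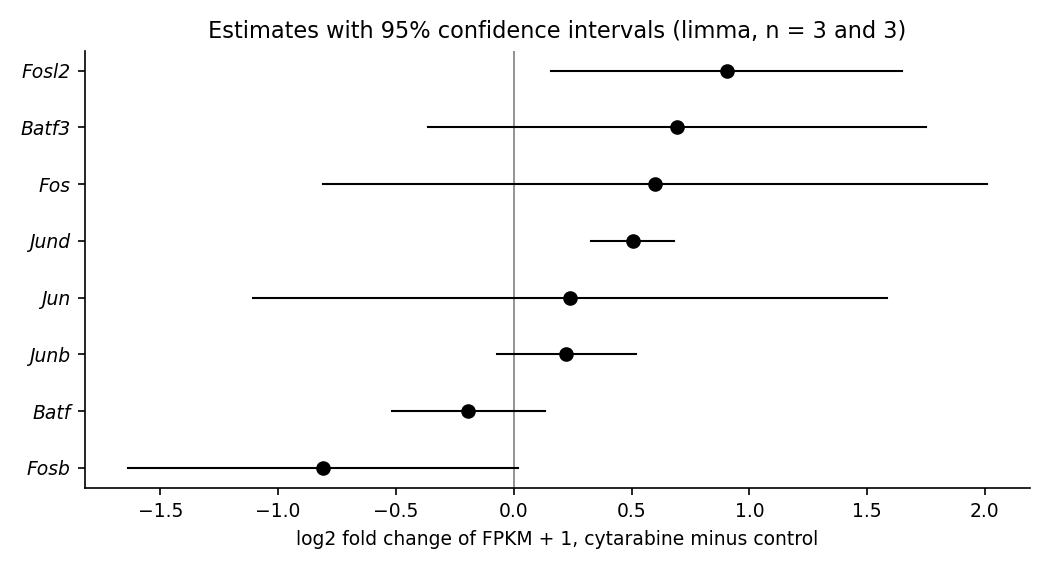
Log2 fold change of FPKM + 1 (cytarabine minus control) of the 8 AP-1 genes tested, with 95% confidence intervals from limma; the vertical line marks no difference. The interval of Jund, from 0.33 to 0.68, is the narrowest, and those of Jund and Fosl2 are the intervals that do not include 0.

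Among the Jun subfamily, Jund encodes JunD, often described as a restraint on proliferation. Cytarabine 1, 2 and 3 measured 67.4, 67.1 and 61.7 FPKM, against 47.0, 42.6 and 47.8 FPKM for control 1, 2 and 3. The groups did not overlap, and the gap between the groups was wider than the spread inside either. Group means were 65.4 ± 3.18 and 45.8 ± 2.77 FPKM (SD, n = 3 mice each), a log2 fold change of 0.51 (SE 0.07, where SE is the standard error, unadjusted p = 4.49e-04, limma adjusted p = 0.131). The adjusted value did not pass 0.05, although Jund stood at rank 31 of the 11703 genes by p. Within the 3 libraries with the lower colon score Jund differed by 0.57 (cytarabine 1 against control 2 and 3). Within the 3 with the higher score it differed by 0.45 (cytarabine 2 and 3 against control 1). Since the groups did not overlap, the direction of both differences was fixed in advance, and each side sets 1 library against 2. Across the 17 alternative fits the log2 fold change stayed between 0.46 and 0.55, with an unadjusted p of at most 0.0067 and an adjusted p from limma of 0.0535 to 0.567. Jund lies on chromosome 8 from 70698949 to 70700616 of GRCm38 as 1 exon, and its transcript is 67.1% G and C. The 10 other tested genes whose longest transcript was within 1 percentage point of that had a median log2 fold change of -0.11. Its RefSeq start region lies upstream of this position and held none of the motifs. An antisense gene, Gm11175, overlaps Jund, and whether reads were counted by strand was not given.

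Junb encodes JunB, an immediate-early partner of Fos and BATF proteins in lymphoid and myeloid cells. It was at 55.7, 55.2 and 52.3 FPKM with cytarabine, against 47.3, 53.9 and 39.3 FPKM in controls. The cytarabine libraries were close together, and control 2 lay within their range. Its log2 fold change of 0.22 (SE 0.12, limma adjusted p = 0.366) had a confidence interval from -0.07 to 0.52. Without control 2 the log2 fold change was 0.33 with an unadjusted p of 0.0267 (limma adjusted p = 0.451), and without control 3 it was 0.10. Prdx2, a peroxiredoxin gene on the opposite strand at 129.2 to 183.0 FPKM, overlaps the Junb gene at its end on chromosome 8 (84974484 to 84974834). The annotated Junb gene spans 4235 bases, while its longest transcript is 1 exon of 1809 bases. Whether Prdx2 reads entered the Junb value was not tested.

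Jun, the founding member of the family, was much lower than Junb and Jund and varied more between libraries. It was at 1.30, 4.504 and 6.23 FPKM with cytarabine, against 4.91, 3.26 and 1.22 FPKM in controls. High and low libraries occurred in both groups, with the lowest values in cytarabine 1 and control 3. The log2 fold change was 0.24 (SE 0.55, limma adjusted p = 0.819), and its interval from -1.11 to 1.58 allows changes in either direction. Jun was higher in each of the 3 libraries with the higher colon score than in each of the other 3, by 1.14 on the log2 scale. With the colon score as a covariate the difference between the groups was -0.66 (limma adjusted p = 0.5), without cytarabine 3 it was -0.10 and without control 3 it was -0.15. With the heart score as a covariate it was 0.85 (limma adjusted p = 0.160). Jun, on chromosome 4 from 95049034 to 95052222, is a gene of 1 exon that an antisense gene, Junos, overlaps.

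Among the Fos subfamily, Fosb encodes FosB and its shorter form ΔFosB, which the values per gene do not separate. It was at 4.96, 4.53 and 3.11 FPKM with cytarabine, against 5.13, 13.4 and 7.27 FPKM in controls. The cytarabine values all lay under the control values, but cytarabine 1 and control 1 were close to each other and control 2 was far above the rest. Group means were 4.201 ± 0.97 and 8.60 ± 4.29 FPKM (SD, n = 3 mice each). The log2 fold change was -0.81 (SE 0.34, unadjusted p = 0.0536, limma adjusted p = 0.293). Without control 2 it was -0.47 (limma adjusted p = 0.541), with the colon score as a covariate -0.34 (adjusted p = 0.671), and without control 1 it was -1.09 with an unadjusted p of 0.0151 (adjusted p = 0.241). The 10 macrophage and monocyte markers summed to 408.9 FPKM in control 2, where Fosb was highest, and to 105.1 to 183.1 FPKM in the other 5 libraries. Their part in the result was not tested.

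Fosl2 encodes Fra-2, a Fos protein without a strong activation domain. It was at 4.40, 7.95 and 9.25 FPKM with cytarabine, against 4.61, 2.91 and 2.45 FPKM in controls. Cytarabine 2 and 3 were above every control, and cytarabine 1 was just below control 1. The log2 fold change was 0.90 (SE 0.30, unadjusted p = 0.0253, limma adjusted p = 0.231). This unadjusted p rested on several libraries: it was 0.0765 without cytarabine 2, 0.0776 without cytarabine 3, 0.0738 without control 2 and 0.08 without control 3, with log2 fold changes of 0.81, 0.72, 0.85 and 0.76. Fosl2 was also higher in each of the 3 libraries with the higher colon score than in each of the other 3, by 0.94 on the log2 scale. Within those 3 libraries cytarabine exceeded control by 0.77 and within the other 3 by 0.56. With the colon score as a covariate the log2 fold change was 0.36 (limma adjusted p = 0.404), and with the heart score it was 1.22 (adjusted p = 0.115).

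Fos, the classical immediate-early partner of Jun, had a single high library. It was at 8.18 FPKM in cytarabine 1, 17.6 in cytarabine 2 and 40.7 in cytarabine 3, and at 14.1, 14.7 and 7.61 FPKM in the controls. The lowest cytarabine value lay near the lowest control value, and cytarabine 3 was 5.35 times the lowest library. The log2 fold change of Fos was 0.60 (SE 0.57, limma adjusted p = 0.562). Without cytarabine 3 it was 0.04, without control 3 it was 0.32 and without cytarabine 1 it was 1.13 (limma adjusted p = 0.149). With the colon score as a covariate it was -0.10, and with the heart score 1.23 (limma adjusted p = 0.118). Fosl1, which encodes Fra-1, was at 0.559, 0.141 and 0.299 FPKM with cytarabine, against 0.0934, 0.107 and 0.289 FPKM in controls. On its transcript of 1864 bases these values correspond to about 12.1, 4.4 and 6.6 reads with cytarabine and 2.2, 2.2 and 5.5 reads in controls. Control 1 and 2 were thus under 3 reads, and the groups overlapped. With its mean under 1 FPKM, Fosl1 was not tested with the other members, and a fit without the filter gave a log2 fold change of 0.19 (SE 0.13, limma adjusted p = 0.536). Fosl1 (chromosome 19, 5447547 to 5455946) overlaps Ccdc85b on the opposite strand, which was at 5.38 to 6.80 FPKM. Fosb lies on chromosome 7 (19302696 to 19310051), Fosl2 on chromosome 5 (32135801 to 32157842) and Fos on chromosome 12 (85473890 to 85477273).

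The Batf subfamily lacks activation domains of its own and is best known from T cells and dendritic cells. Batf was at 22.4, 25.3 and 20.3 FPKM with cytarabine, against 21.9, 28.9 and 27.6 FPKM in controls. The groups overlapped, and the log2 fold change was -0.19 (SE 0.13, limma adjusted p = 0.44), with an interval from -0.52 to 0.13. Without cytarabine 3 or without control 2 it was -0.12 (limma adjusted p = 0.758 and 0.730). Without control 1 it was -0.31, with an unadjusted p of 0.0379 (limma adjusted p = 0.261), with the colon score as a covariate it was -0.04, and with the heart score -0.30 (adjusted p = 0.160). Batf3 was at 19.01, 19.8 and 16.3 FPKM with cytarabine, against 7.77, 23.1 and 7.03 FPKM in controls. The cytarabine libraries were alike and above control 1 and 3, while control 2 was above all of them. The log2 fold change of Batf3 was 0.69 (SE 0.43, limma adjusted p = 0.404). Without control 2 it was 1.202, with an unadjusted p of 2.19e-04 and an adjusted p of 0.421 from limma. It was 0.41 without control 3 and 0.47 without control 1 (limma adjusted p = 0.706 and 0.577). The Batf to Batf3 ratio of FPKM was 1.18 to 1.27 in the cytarabine libraries and 2.82, 1.25 and 3.92 in control 1, 2 and 3. Batf3 lies on chromosome 1 (191097847 to 191108945). Fos and Batf (85686669 to 85709087) lie 209.4 kb apart on chromosome 12, with Jdp2, a repressor that pairs with Jun proteins, between them, at 0.448 to 1.91 FPKM.

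The 9 genes summed to 183.9, 202.1 and 210.3 FPKM in cytarabine 1, 2 and 3, against 152.8, 183.0 and 140.5 FPKM for control 1, 2 and 3. The groups did not overlap, by a narrow margin between cytarabine 1 and control 2. The Jun subfamily summed to 123.8 ± 3.30 FPKM with cytarabine and 95.8 ± 6.47 FPKM in controls (SD, n = 3 mice each), without overlap of the groups. Within it Jund alone did not overlap, whereas Jun and Junb did. The Fos subfamily summed to 33.9 ± 17.9 and 24.2 ± 6.78 FPKM and the Batf subfamily to 41.0 ± 4.25 and 38.8 ± 11.7 FPKM, with overlap. As a share of the sum, Fosb was 2.14 ± 0.62% with cytarabine and 5.29 ± 1.98% in controls, and Batf 11.5 ± 1.54% and 16.6 ± 2.73%, neither with overlap. A share also falls when the sum rises, and the FPKM of Batf itself overlapped between the groups. No test was made on these sums and shares, since they add up the same values as above.

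**Figure D3:**
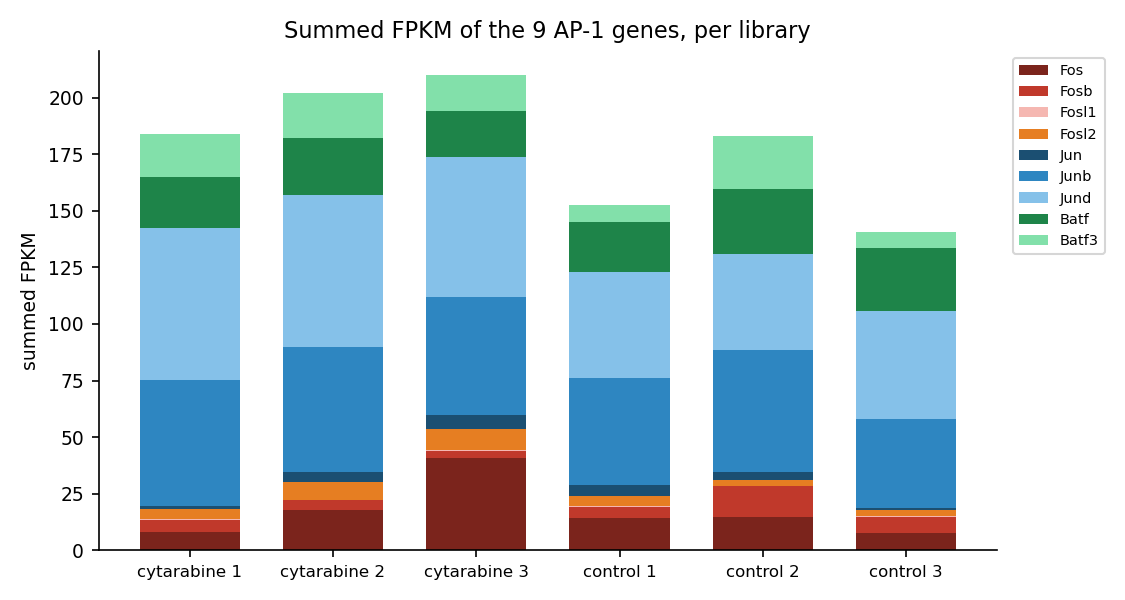
Summed FPKM of the 9 AP-1 genes in each library, stacked by gene (red and orange, Fos subfamily; blue, Jun subfamily; green, Batf subfamily). Junb and Jund make up the larger part of every bar, and the bars reach 183.9 to 210.3 FPKM with cytarabine and 140.5 to 183.0 FPKM in controls.

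The plot of AP-1 levels against colon transcripts shows which members followed that division of the libraries. The colon score was 3.64, 6.92 and 7.11 in cytarabine 1, 2 and 3 and 5.87, 1.21 and 0.97 in control 1, 2 and 3. Jun and Fosl2 did not overlap between the higher and the lower 3 libraries, whereas Fos, Fosb, Junb, Jund, Batf, Batf3 and Fosl1 did. For Fosl2 the margin was narrow, with control 1 at 4.61 and cytarabine 1 at 4.40 FPKM. The share of all genes that divide in this way was not counted, so nothing particular to AP-1 is read from it. Jund and Junb differed by 0.16 and 0.07 on the log2 scale between the 2 sides. Whether the colon transcripts account for any of these levels was not tested.

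**Figure D4:**
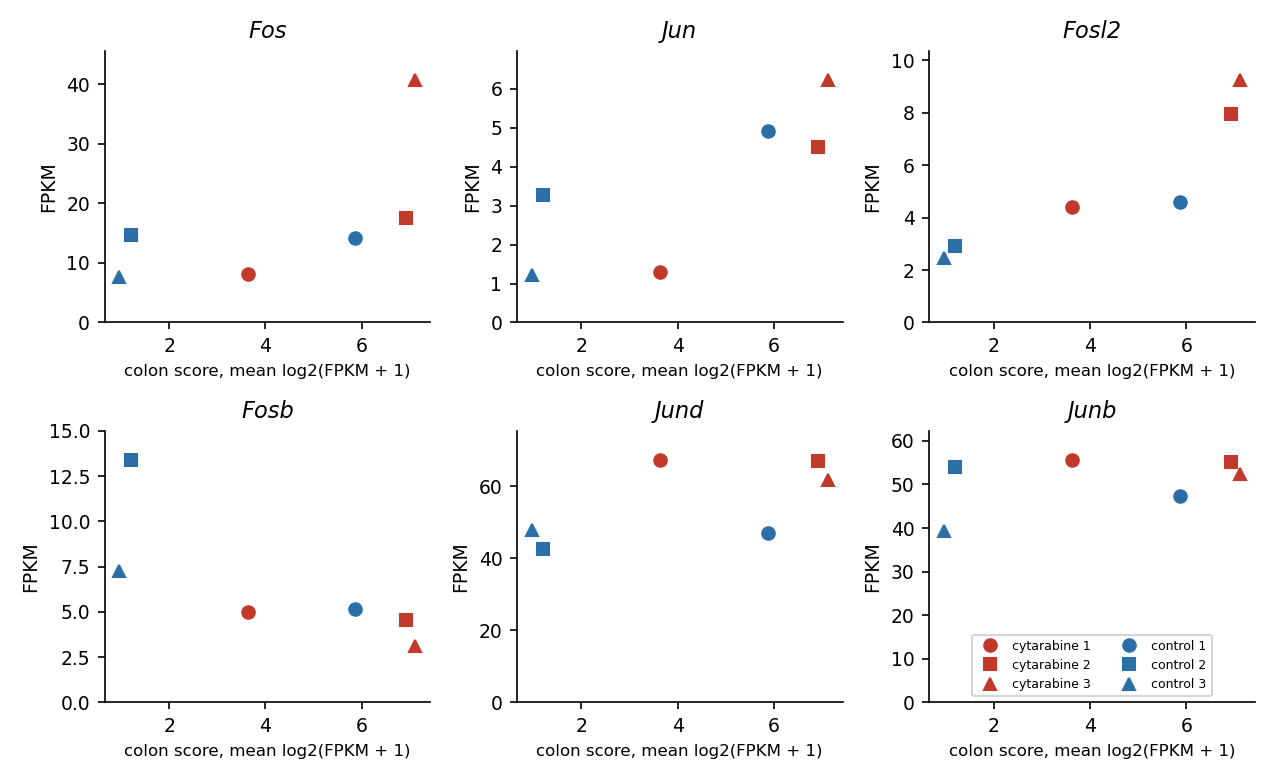
FPKM of 6 AP-1 genes against the colon score of each library (red, cytarabine; blue, control; symbols give the replicate). Jun and Fosl2 are higher in the 3 libraries at the right. Jund is at 61.7 to 67.4 FPKM with cytarabine and at 42.6 to 47.8 FPKM in controls. Since these groups do not overlap, they stay apart in any part of the axis.

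The 3 members that ranged most widely between libraries were Fos, Fosb and Jun, over 2.28, 1.81 and 1.70 on the log2(FPKM + 1) scale. The genes nearest to each were found by the root mean square difference of centered log2(FPKM + 1) over the 6 libraries. Nearest to Fos were Gas1 (0.22), Il1r1 (0.24) and Areg (0.25). Nearest to Fosb were Cd300lf (0.18), Gp49a (0.21) and Tyrobp (0.22), genes of receptors and an adaptor of myeloid cells. Tyrobp was at 69.4 FPKM in control 2 and at 23.6 to 35.3 FPKM in the other libraries. Nearest to Jun were Alcam (0.11) and Rhoj (0.12). All these genes were picked for the likeness of their profiles, so sharing high and low libraries with the member follows from the choice. Several were low, such as Gas1 at 0.0296 to 2.75, Areg at 0 to 3.53 and Rhoj at 0.121 to 3.22 FPKM.

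The genes around AP-1 were then taken by role. Of 113 tested genes in 11 lists, 15 were higher and 17 lower with cytarabine at an unadjusted p under 0.05, against 7.60% and 9.81% of all genes tested, the background for each list that follows. None had an adjusted p under 0.05, and the median log2 fold change was -0.02. Of 15 other basic leucine zipper genes that can pair with AP-1 proteins or meet them at their sites, 2 were higher and 3 lower. Mafg, a small Maf protein, was at 13.8 to 14.0 FPKM with cytarabine and 17.7 to 18.9 FPKM in controls (log2 fold change -0.37, SE 0.06, limma adjusted p = 0.136). Its relative Mafk differed the other way, at 20.3 to 22.0 and 16.0 to 18.6 FPKM (0.29, SE 0.08, adjusted p = 0.183). Atf5 was at 7.93 to 11.01 FPKM with cytarabine and 14.5 to 18.1 FPKM in controls (-0.74, SE 0.14, adjusted p = 0.137). The heme-regulated repressor Bach1 had a log2 fold change of 0.35 and Bach2 one of -0.46, neither past an adjusted p of 0.05. The BATF partners Irf4 and Irf8 had log2 fold changes of 0.18 and 0.27 (adjusted p = 0.469 and 0.624 from limma).

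Of 15 genes of the JNK cascade, which activates JUN by phosphorylation, 1 was higher and 2 lower at an unadjusted p under 0.05, with a median of -0.09. The kinases Map4k4 and Map3k3, upstream in the cascade, had log2 fold changes of -0.42 and -0.36 (adjusted p = 0.166 and 0.223 from limma), Map3k5 one of 0.22 (adjusted p = 0.285). Of 14 genes of the ERK cascade 2 were higher and 2 lower. Rps6ka1 had a log2 fold change of 0.38, Rps6ka3 one of -0.32 and Map2k2 one of -0.20, with adjusted p-values from limma of 0.199 to 0.270. Of 9 genes of the p38 and ERK5 cascades none was higher and 3 lower, Mapk11 (-0.63), Map2k5 (-0.30) and Mapk14 (-0.30), with adjusted p-values of 0.151 to 0.215. Mapk14, which encodes p38α, was at 128.4 to 158.7 FPKM with cytarabine and 166.0 to 186.5 FPKM in controls. None of the 4 genes of SRF and its ternary complex factors passed an unadjusted p of 0.05, with Srf itself at -0.07. Phosphorylation is not seen in mRNA levels.

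Of 9 genes for the turnover of JUN and FOS proteins none was higher and 2 lower, Det1 (-0.36, limma adjusted p = 0.182) and Ddb1 (-0.15, adjusted p = 0.256), which work together with the COP1 ubiquitin ligase. Of 10 genes that act on AU-rich mRNAs, such as that of Fos, 1 was higher and 4 lower. Zfp36, which encodes the decay factor tristetraprolin and is itself an immediate-early gene, was at 64.4, 51.2 and 52.1 FPKM with cytarabine, against 34.8, 39.9 and 36.6 FPKM in controls. The groups did not overlap (log2 fold change 0.57, SE 0.11, limma adjusted p = 0.140). Pabpc1, Khsrp and Auh had log2 fold changes of -0.22, -0.37 and -0.32, with adjusted p-values of 0.254 to 0.275.

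Of 12 other immediate-early transcription factor genes, 5 were higher and 1 lower at an unadjusted p under 0.05 (7.60% and 9.81% of all genes), and their median log2 fold change was 0.46. Egr1 was at 61.3, 41.3 and 38.04 FPKM with cytarabine, against 19.4, 22.7 and 17.2 FPKM in controls, without overlap (1.18, SE 0.20, limma adjusted p = 0.136). Egr2 and Klf10 also did not overlap, with log2 fold changes of 1.29 and 0.87 (adjusted p = 0.137 and 0.136). Myc was lower, at 20.9 to 33.4 against 35.6 to 48.5 FPKM (-0.56, adjusted p = 0.248). The other genes counted as higher were Egr3 (1.34) and Ier5 (0.41). The median also takes in genes not called, among them Klf4, with the largest log2 fold change of the list (1.78). Klf4 was at 2.44, 30.4 and 40.7 FPKM with cytarabine, against 18.6, 2.38 and 0.671 FPKM in controls, so the groups overlapped. A filter at a mean of 5 FPKM removed Egr2 and Egr3 from the test and left 3 called, Egr1, Klf10 and Ier5. Cytarabine 1, which held the highest Egr1 value, had Fos below control 1 and 2, at 8.18 FPKM.

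Of 20 tested genes known as AP-1 targets, 3 were higher and none lower at an unadjusted p under 0.05 (7.60% and 9.81% of all genes), with a median of 0.04. Il2ra, the α chain of the interleukin-2 receptor, was at 11.3, 8.34 and 8.78 FPKM with cytarabine, against 1.24, 4.21 and 3.03 FPKM in controls (1.53, SE 0.32, limma adjusted p = 0.151). Tnf was at 22.3 to 36.1 FPKM with cytarabine and 17.3 to 19.6 FPKM in controls (0.62, adjusted p = 0.193), and Ets1 at 12.3 to 13.3 and 9.17 to 11.3 FPKM (0.34, adjusted p = 0.192). The other 17 targets spread on both sides of no difference, from -1.78 to 1.46, among them Ccnd1 (0.50, adjusted p = 0.690) and Mmp9 (0.08, adjusted p = 0.683). Of 10 lymphocyte genes at which BATF is known to act, 3 reached the filter, and 1 of them, Ctla4, is among the 15 counted as higher. It passed the filter only through the cytarabine libraries, with group means of 2.27 and 0.475 FPKM, and without cytarabine 2 it was not tested, so nothing is read from its call. Ctla4 was at 1.5003, 3.85 and 1.47 FPKM with cytarabine, against 1.18, 0.0466 and 0.201 FPKM in controls, so control 1 came near the cytarabine libraries. Among T cell genes Cd3g was high throughout, at 449.4 to 651.9 FPKM, whereas Cd4 and Cd8a stayed under 1 FPKM.

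**Figure D5:**
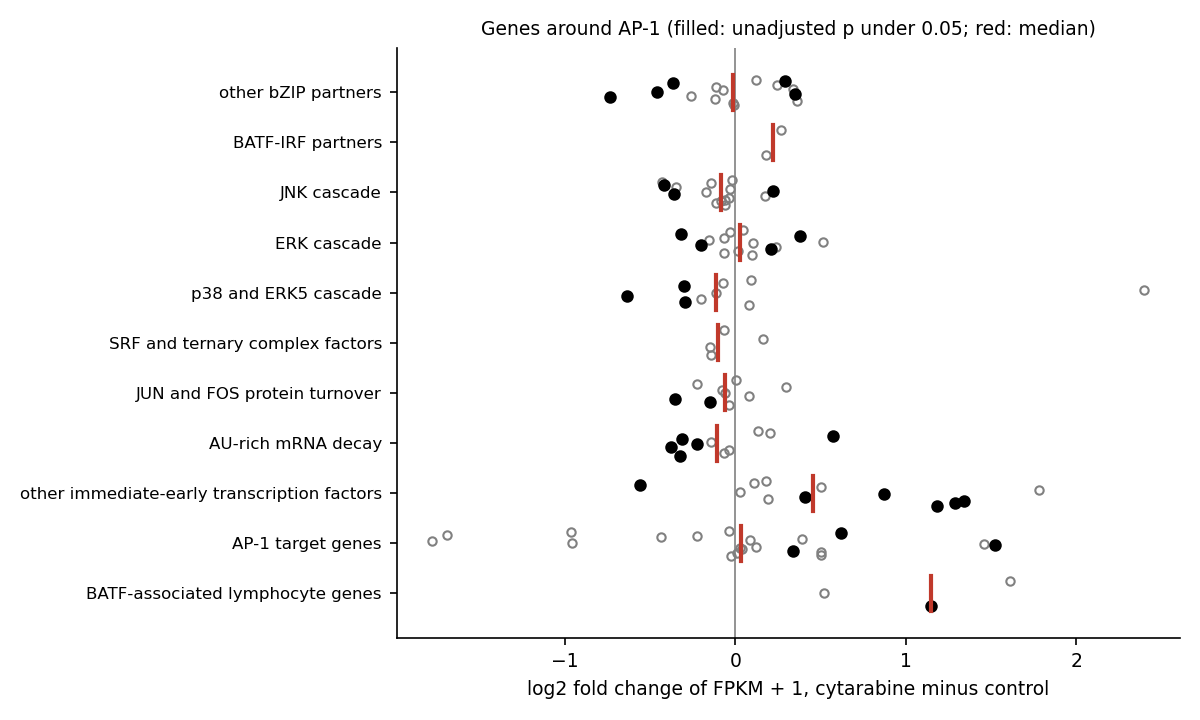
Log2 fold change of FPKM + 1 (cytarabine minus control) of the tested genes of 11 lists around AP-1, 1 point per gene; filled points have an unadjusted p under 0.05 and red lines are list medians. The immediate-early list has its median at 0.46 with 5 filled points to the right, while the JNK, ERK and p38 lists have medians between -0.11 and 0.03.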

How the data were processed

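The authors sequenced 75-base single-end reads, mapped them to mm10 with TopHat2 2.0.13, Bowtie2 2.2.3 and SAMtools 0.1.19 and deposited one FPKM value per gene and library from Cufflinks 2.2.1. Library size and transcript length were thus divided out before deposit, and the gene annotation and the use of strand are not given in the sources used here. Groups and replicate numbers came from the sample labels. Deposited FPKM values were put on the log2(FPKM + 1) scale, which understates the fold change of low genes. Genes averaging 1 FPKM or more entered a limma fit (version 3.58.1, R 4.3.3, eBayes with trend, two-sided, Benjamini-Hochberg over 11703 genes). FPKM are not counts, so no count test was run. Depth was inferred from the steps of low values of genes with 1 transcript, assuming fragments of 200 bases, where 74.3 to 80.9% of values fell within 0.15 of a whole read. The p-values set the difference between the groups against the spread between 3 mice per group, which eBayes moderates with a trend over all genes tested. Positions are from GENCODE M21 (GRCm38), start regions from RefSeq (GRCm38.p6). No protein sequences were used here. The members and lists were chosen with earlier results of these data known. Named genes are the 9 members, up to 3 genes in each direction per list with the smallest unadjusted p under 0.05, and the 3 genes nearest to each of the 3 most variable members; some of these are not reported here. Prdx2, Jdp2, Egr3, Ier5, Klf4, Srf, Irf4, Irf8, Ccnd1, Mmp9 and the named markers were picked with their values in view. Alternatives were another pseudocount, other filters, other scalings, other eBayes settings, a replicate block, colon or heart score as a covariate, and leaving out each library.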

Additional observations from a re-analysis of the deposited data

How the results depend on the processing

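No AP-1 member and no gene of the lists around AP-1 had an adjusted p under 0.05 from limma in the main fit or in any of the 17 alternatives run. Of 624 refitted values of named genes, 620 kept their direction and 4 reversed. Those were Fos (-0.10) and Jun (-0.66) with the colon score as a covariate, and Jun without cytarabine 3 (-0.10) and without control 3 (-0.15). Refitted genes outside the members were picked for an unadjusted p under 0.05 in the main fit, so their kept direction says little. Among the members, Fos kept its direction in 16 of 17 alternative fits, Jun in 13 of 16 and the other tested members in all. With each replicate left out in turn, Jun ranged from -0.15 to 0.72. Among the other scalings, quantile normalization moved the median of all genes to -0.06. The 2 members at an unadjusted p under 0.05 became 1 with the replicate block, 1 with the colon score and 6 with the heart score as a covariate, and 1 to 4 when each replicate was left out in turn. The list genes at that threshold, 15 higher and 17 lower, became 23 higher with the heart score, 8 lower with the colon score and 6 lower with the replicate block. They ranged from 11 to 24 higher and from 7 to 23 lower when each replicate was left out in turn. Calls among all genes tested moved as well, from 890 higher and 1148 lower in the main fit. They were 1842 and 1795 with the heart score, 963 and 840 with the colon score, and 479 and 515 with the replicate block. With each replicate left out in turn, all genes gave 593 to 2062 higher and 582 to 2049 lower. The cause was not tested. Same-numbered libraries are different mice, and no pairing of them is stated. Their deviations from the group means correlated at -0.71, -0.25 and -0.59. With 3 libraries per group that differ widely in other transcripts, these correlations cannot show whether the numbers pair the libraries. Mean and median levels over the 6 libraries differed by less than 1 SD for all 9 members. That bound holds for any set of values, so it says nothing about how steady these levels are. At 11500000 to 18900000 inferred reads, Fosl1 had 2.2 to 12.1 reads per library.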
